A study of Mus musculus with 9 samples.

Results

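The proteasome subunit genes are described here in the forebrain of mouse embryos that carried 1 or both working copies of *Npas3*, the gene of a bHLH-PAS transcription factor. They were chosen by name, as the genes whose symbol is Psma, Psmb, Psmc, Psmd or Psme followed by a number and whose counts summed to 90 or more over the 9 embryos. *Psma6* was left out as a chromosomal neighbour of *Npas3*, and *Psmb11*, a thymic catalytic subunit, had 14 counts in all and fell under the minimum. This left 41 of the 55401 genes in the table, and all 41 were among the 17818 genes tested. The embryos were females at E16 to E17 on the C57BL/6J background, 5 of them *Npas3*+/+ (WT) littermate controls and 4 *Npas3*+/- (HET), which the labels write as Npas+/+ and Npas+/-. The deletion was constitutive and so present in every cell. The labels do not say which embryos shared a litter. Poly(A) RNA of bulk forebrain was sequenced, and the values below are counts scaled to library size by the TMM method (CPM). Embryos are named by genotype and by the number in their label, such as WT16.

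The proteasome is the protease of the cytosol and nucleus that degrades proteins tagged with ubiquitin. Its core particle is a barrel of stacked rings, with alpha subunits at the ends that gate the entry and beta subunits inside, some of which carry the active sites. The regulatory particle on top has a base with a ring of ATPases that unfold substrates and a lid that removes the ubiquitin chains. Genes of the subunits are known to be transcribed in a coordinated way, through NRF1 (gene *Nfe2l1*) among other factors, and neurons depend on the complex for protein turnover during differentiation and at synapses.

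Libraries held between 42640218 and 62830060 counts. *Npas3* was at 36.2 ± 4.18 CPM (SD, n = 5) for WT against 29.5 ± 3.09 CPM (SD, n = 4) for HET. Over all embryos its log2 fold change was −0.30 (SE 0.10, adjusted p = 0.877). WT16, at 29.7 CPM, was the lowest WT embryo, and the other WT embryos stood at 35.4 to 40.8 CPM. HET7, at 34.1 CPM, was the highest HET embryo and exceeded WT16, with the other HET embryos at 27.8 to 28.2 CPM. Once WT16 was left out the groups did not overlap, and the log2 fold change was −0.36 (SE 0.08, adjusted p = 0.381). In that comparison DESeq2 gave an adjusted p of 0.0350. WT16 and HET7 were also the embryos highest and lowest for most proteasome genes, and a link to their *Npas3* level was not tested. Although the labels give astrocytes as the cell type, the 7 astrocyte markers summed to 459 to 612 CPM and the 8 neuronal markers to 6161 to 7178 CPM, and the samples are called bulk forebrain here. Of the astrocyte markers, *Slc1a3* was at 247 to 319 CPM, *Slc1a2* at 82.7 to 185, *Gja1* at 75.5 to 102, *Aldh1l1* at 2.79 to 31.7, *Gfap* at 4.23 to 12.5, *Aqp4* at 0.163 to 2.02 and *S100b* at 0.0883 to 0.326 CPM. Summed levels of the 8 choroid plexus markers ran from 18 to 2919 CPM in WT and from 27.9 to 536 CPM in HET, with *Ttr* at 2127 to 2631 CPM in WT15, WT16 and WT41 and at 466.6 CPM in HET24.

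No proteasome gene was called different between HET and WT. In edgeR's quasi-likelihood test over all 9 embryos, 0 of the 41 genes passed an adjusted p of 0.05, where 0.112% of all genes tested passed as lower and 0.0281% as higher. DESeq2 and limma-voom also called 0 of the 41. At an unadjusted p under 0.05 the count was again 0 of 41, against 3.09% of all genes tested as lower and 2.32% as higher. HET and WT values overlapped for all 41 genes, whereas HET lay below every WT embryo for 1.07% of all genes tested and above every WT embryo for 0.786%. Most estimates were below 0. Of the 41 genes, 35 had a log2 fold change below 0, against 51.5% of all genes tested, and 6 (48.5% of all genes tested) had one above 0, namely *Psmb8*, *Psmb9*, *Psmd3*, *Psme2*, *Psme3* and *Psme4*. The median was −0.07 over the 41 genes and −0.005 over all genes tested, and the estimates ran from −0.16 for *Psma8* to 0.47 for *Psmb9*.

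This skew moved with WT16. Without that embryo, 27 of the 41 genes had a log2 fold change below 0 (52.1% of all genes tested) and 14 (47.9%) had one above 0, and the median was −0.01. Again 0 of the 41 passed the adjusted threshold (0.102% of all genes tested as lower and 0.0113% as higher), 0 had an unadjusted p under 0.05 (2.58% and 1.87%), and in none did the groups separate (1.65% and 1.25%). DESeq2 and limma-voom called 0 here too. Leaving out HET7 instead gave 30 genes below 0 and a median of −0.03. With WT16 and HET7 both left out, a choice made after the data were seen, 14 genes were below 0 and 27 above, with a median of 0.02. Among the 5 embryos with *Ttr* under 100 CPM (WT5, WT43, HET5, HET6 and HET7), also chosen after the data were seen, 35 genes were below 0 with a median of −0.04.

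**Figure D1:**
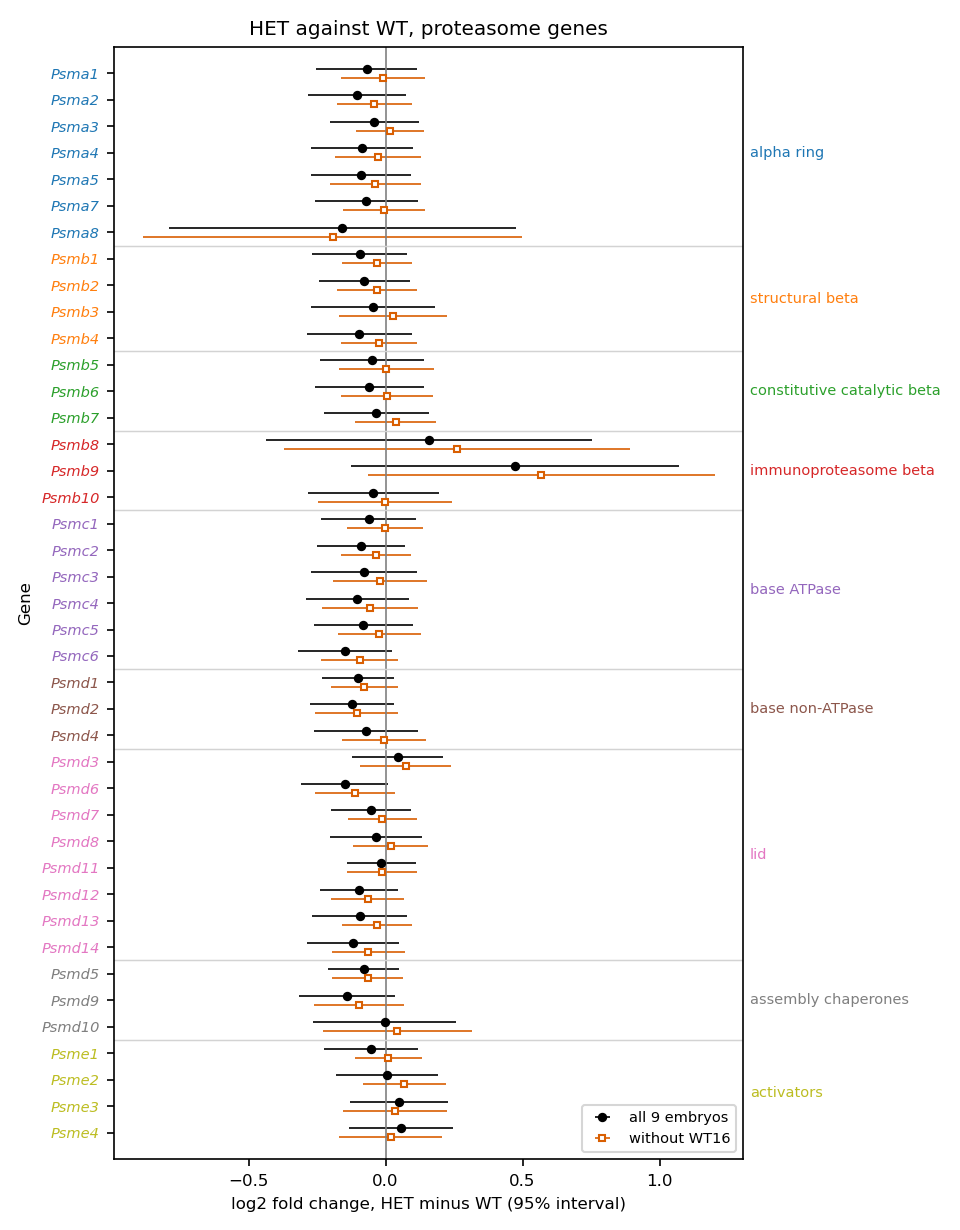
Log2 fold change of each proteasome gene, HET minus WT, with a 95% interval derived from edgeR's quasi-likelihood test, over all 9 embryos (black circles) and without WT16 (open orange squares), grouped by the part of the complex. Every interval crosses 0 in both fits, 35 of 41 black circles lie left of 0, and the open squares lie closer to 0 for most genes, with wide intervals for *Psma8*, *Psmb8* and *Psmb9*.

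The 7 alpha ring genes all had estimates below 0 over all embryos, and 6 of 7 without WT16. *Psma1*, *Psma2*, *Psma4*, *Psma5* and *Psma7*, which encode subunits of this gate, had log2 fold changes of −0.07 to −0.10. *Psma3*, with the estimate nearest 0, was at 117 ± 10.6 CPM (SD, n = 5) for WT against 114 ± 6.52 CPM (SD, n = 4) for HET, a log2 fold change of −0.04 (SE 0.07, adjusted p = 0.941). *Psma8*, the germ cell counterpart of *Psma7*, was barely detected, with 9 to 20 counts per embryo. Its level was 0.385 CPM in WT5, 0.332 in WT15, 0.283 in WT16, 0.315 in WT41 and 0.265 in WT43. HET embryos stood at 0.195 CPM in HET5, 0.442 in HET6, 0.310 in HET7 and 0.192 in HET24. HET6 held the highest value and HET24 and HET5 the lowest, so the HET embryos spanned the WT range on both sides, and the log2 fold change was −0.16 (SE 0.29, 95% interval −0.79 to 0.47, adjusted p = 0.942). That value was −0.43 without HET6, −0.09 without WT5, −0.02 without HET5 and −0.0037 without HET24. Of the 50-base words in the exons of *Psma5*, 49.1% also occur in another gene's transcripts, so its counts are uncertain, as are to a lesser degree those of *Psma3* (15.4%) and *Psma4* (11.6%).

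Structural beta subunits line the inner rings without an active site of their own. All 4 of their genes had estimates below 0 over all embryos and 3 of 4 without WT16. *Psmb4* was 165 CPM in WT5, 164 in WT15, 214 in WT16, 173 in WT41 and 179 in WT43. HET libraries gave 178 CPM in HET5, 176 in HET6, 153 in HET7 and 162 in HET24. WT16 was well above the rest, HET7 was the lowest, and the other 7 embryos lay between 162 and 179 CPM, giving a log2 fold change of −0.10 (SE 0.09, adjusted p = 0.912) with WT16 and −0.02 (SE 0.06, adjusted p = 0.991) without it. *Psmb3* had the same highest and lowest embryos, from 68.2 CPM in HET7 to 97.1 CPM in WT16, and its log2 fold change went from −0.05 (SE 0.10, adjusted p = 0.950) to 0.03 (SE 0.09, adjusted p = 0.993) without WT16. *Psmb3* shares 17.8% of its 50-base words with other transcripts and is uncertain in that part.

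The 3 constitutive catalytic subunits cut peptide bonds with different preferences, *Psmb6* after acidic, *Psmb7* after basic and *Psmb5* after hydrophobic residues. All 3 had estimates below 0 over all embryos and above 0 without WT16. *Psmb5* (chr14:54614119-54618022, minus strand, in GRCm38 coordinates like all that follow) was at 36.1 CPM in WT5, 31.5 in WT15, 39.8 in WT16, 32.0 in WT41 and 34.8 in WT43. Among HET embryos it was 36.5 CPM in HET5, 34.8 in HET6, 30.01 in HET7 and 33.4 in HET24. WT16 was the highest and HET7 the lowest of the 9, and WT5, HET5, WT43 and HET6 lay together between them. Its log2 fold change was −0.05 (SE 0.09, 95% interval −0.24 to 0.14, adjusted p = 0.941) and 0.0032 (SE 0.08, adjusted p = 0.998) without WT16. *Psmb5* shares 47.4% of its 50-base words with other transcripts, and 12.1% of its exonic bases are overlapped by another annotated gene, so its level is uncertain.

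*Psmb6* (chr11:70525367-70527858, plus strand) was 151 CPM in WT5, 128 in WT15, 170.4 in WT16, 131 in WT41 and 144 in WT43. HET embryos gave 148 CPM in HET5, 145 in HET6, 123 in HET7 and 139.6 in HET24. The order was again led by WT16 and closed by HET7, and the groups overlapped over most of their range. The log2 fold change of *Psmb6* was −0.06 (SE 0.09, adjusted p = 0.939) and 0.01 (SE 0.08, adjusted p = 0.997) without WT16. For *Psmb7* (chr2:38588036-38644087, minus strand), the level was 168 ± 18.5 CPM (SD, n = 5) for WT against 164 ± 13.1 CPM (SD, n = 4) for HET. The highest was WT16 with 199 CPM and the lowest WT15 with 150.3 CPM, so the WT group alone spanned all HET values, and the log2 fold change was −0.03 (SE 0.09, adjusted p = 0.958). *Nek6* overlaps 11.8% of the exonic bases of *Psmb7*.

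*Psmb8*, *Psmb9* and *Psmb10* encode the catalytic subunits of the immunoproteasome, which replace *Psmb5*, *Psmb6* and *Psmb7* respectively in immune cells and after interferon exposure. They were far lower than their constitutive counterparts once length was taken into account. In WT, *Psmb9* was at 0.0556 ± 0.0127, *Psmb8* at 0.129 ± 0.0419 and *Psmb10* at 4.08 ± 0.446 CPM per exonic kilobase (SD, n = 5). The constitutive counterparts *Psmb6*, *Psmb5* and *Psmb7* were at 77.4 ± 9.03, 38.8 ± 3.77 and 49.0 ± 5.42 CPM per exonic kilobase. *Psmb8* and *Psmb9* lie 9957 bases apart in the class II region of the major histocompatibility complex on chromosome 17.

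*Psmb9* (chr17:34181987-34187764, minus strand) had 6 to 18 counts per embryo. Its level was 0.144 CPM in WT5, 0.177 in WT15, 0.261 in WT16, 0.236 in WT41 and 0.199 in WT43. HET embryos were at 0.390 CPM in HET5, 0.279 in HET6, 0.269 in HET7 and 0.211 in HET24. HET5 was the highest of all, HET6 and HET7 were just above the highest WT embryo, WT16, and HET24 was inside the WT range, so the groups overlapped. The log2 fold change of 0.47 (SE 0.27, 95% interval −0.13 to 1.07, adjusted p = 0.911) was the largest among the 41 genes. It was 0.29 without HET5, and without WT16 it was 0.57 (SE 0.28, 95% interval −0.06 to 1.20, adjusted p = 0.979). In the fit without WT16 its unadjusted p in edgeR's quasi-likelihood test, 0.0731, was the lowest among the 41 genes.

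*Psmb8* (chr17:34197721-34201454, plus strand) had 10 to 37 counts per embryo and read 0.241 CPM in WT5, 0.376 in WT15, 0.565 in WT16, 0.583 in WT41 and 0.420 in WT43. HET embryos read 0.433 CPM in HET5, 0.629 in HET6, 0.517 in HET7 and 0.403 in HET24. WT5 was the lowest and HET6 the highest, and apart from WT5 the values of both groups were intermingled. Its log2 fold change was 0.16 (SE 0.27, 95% interval −0.44 to 0.75, adjusted p = 0.941), and it was 0.01 without WT5, 0.03 without HET6, 0.29 without WT41, 0.26 without WT16, 0.25 without HET24 and 0.32 with a choroid plexus score as a covariate. Among the embryos with *Ttr* under 100 CPM alone, a choice made after the data were seen, the log2 fold change was 0.66. An annotated gene overlaps 14.7% of the exonic bases of *Psmb8*. *Psmb10* had 262 to 447 counts per embryo and was at 6.96 ± 0.761 CPM (SD, n = 5) for WT against 6.75 ± 0.304 CPM (SD, n = 4) for HET, a log2 fold change of −0.04 (SE 0.11, adjusted p = 0.955). WT15 was the lowest and WT16 the highest for *Psmb10*, with every HET embryo between them. Microglia, the resident immune cells, were marked by 10 genes whose summed level was 74.4 to 98.8 CPM in WT and 78.0 to 96.5 CPM in HET, and their part in the immunoproteasome values was not tested.

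**Figure D2:**
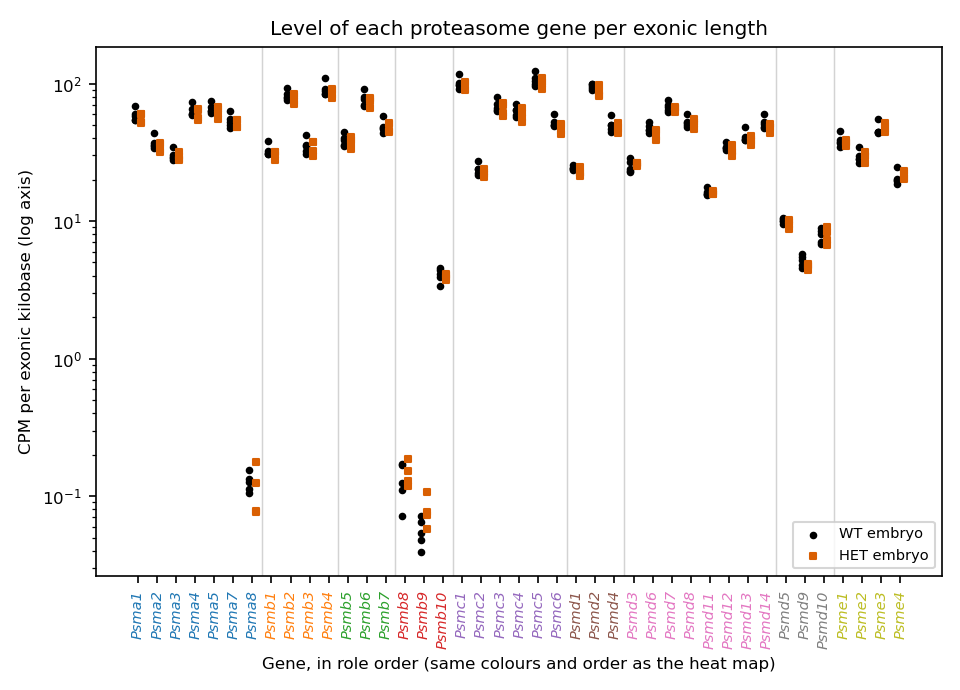
Level of each of the 41 proteasome genes in CPM per kilobase of annotated exon, on a log axis, with 1 point per embryo (black circles, 5 WT; orange squares, 4 HET), in the order of the parts of the complex. WT means reach 107 for *Psmc5*, while those of *Psmb10*, *Psmb8*, *Psma8* and *Psmb9* are 4.08, 0.129, 0.127 and 0.0556.

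With the union of annotated exons as the length, the highest levels per kilobase among the 41 genes in WT were those of *Psmc5* at 107 ± 10.7, *Psmc1* at 101 ± 9.5 and *Psmd2* at 95.3 ± 4.64 CPM per kilobase (SD, n = 5). The embryos' values of these 3 genes overlapped. This order depended on the length used. With the longest transcript instead, *Psmb4* at 151 and *Psmb6* at 149.9 CPM per kilobase led, and *Psmc5*, still at 107, came after 8 other members. *Psmb9* was the lowest with either length.

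The 6 base ATPases, *Psmc1* to *Psmc6*, form the ring that unfolds substrates and opens the gate of the core. All 6 had estimates below 0 with and without WT16, between −0.15 (*Psmc6*) and −0.06 (*Psmc1*) over all embryos. *Psmc6* (chr14:45329788-45349705, plus strand) was 175 CPM in WT5, 171 in WT15, 210.1 in WT16, 176 in WT41 and 182 in WT43. HET values were 175 CPM in HET5, 176 in HET6, 149.7 in HET7 and 158 in HET24. HET7 and HET24 were below every WT embryo, HET5 and HET6 were within the WT range, and WT16 was the highest. The HET against WT estimate was −0.15 (SE 0.08, 95% interval −0.32 to 0.02, adjusted p = 0.911), and −0.09 (SE 0.06, adjusted p = 0.979) without WT16. For *Psmc1* the level was 195 ± 18.4 CPM (SD, n = 5) for WT against 187 ± 13.2 CPM (SD, n = 4) for HET, and the log2 fold change of −0.06 became −0.0036 without WT16, with 14.1% of its 50-base words shared with other transcripts. *Psmc5*, first only with the exon union as length, was at 149 ± 15 CPM (SD, n = 5) for WT against 141 ± 10.3 CPM (SD, n = 4) for HET.

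Of the non-ATPase base subunits, *Psmd1* and *Psmd2* are the large scaffolds that receive substrates and *Psmd4* is a ubiquitin receptor. All 3 genes had estimates below 0 in both fits. *Psmd2* (chr16:20651652-20663414, plus strand) was 387 CPM in WT5, 359.8 in WT15, 403 in WT16, 372 in WT41 and 401 in WT43. HET embryos stood at 392 CPM in HET5, 357 in HET6, 333 in HET7 and 329 in HET24. HET24, HET7 and HET6 were below every WT embryo, while HET5 lay among the highest WT embryos. Its log2 fold change of −0.12 (SE 0.07, 95% interval −0.28 to 0.03, adjusted p = 0.911) was −0.11 (SE 0.07, adjusted p = 0.979) without WT16, and WT16 exceeded the other WT embryos by only 0.09 on the log2 scale for *Psmd2*. Its counts are uncertain, with 17.8% of its 50-base words shared with another gene. For *Psmd4*, by contrast, WT16 exceeded the other WT embryos by 0.30, and the log2 fold change went from −0.07 to −0.01.

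The lid has the deubiquitinase *Psmd14* and its partner *Psmd7* on a scaffold that includes *Psmd3*, *Psmd6*, *Psmd8*, *Psmd11*, *Psmd12* and *Psmd13*. Estimates were below 0 for 7 of the 8 genes over all embryos and for 6 of 8 without WT16. *Psmd6* (chr14:14112174-14120984, minus strand) had the lowest unadjusted p of the 41 genes over all embryos in edgeR's quasi-likelihood test, 0.0625. Its level was 129 CPM in WT5, 123 in WT15, 147 in WT16, 129 in WT41 and 136 in WT43. HET embryos gave 128 CPM in HET5, 127 in HET6, 109 in HET7 and 115 in HET24. HET7 and HET24 were below every WT embryo, and HET5 and HET6 lay between WT15 and WT5. The log2 fold change of *Psmd6* was −0.15 (SE 0.07, 95% interval −0.31 to 0.01, adjusted p = 0.911), and −0.11 (SE 0.07, adjusted p = 0.979) without WT16. *Psmd3*, the exception in the lid, was 125 ± 12.9 CPM (SD, n = 5) for WT against 129 ± 2.94 CPM (SD, n = 4) for HET. Its highest value was 142 CPM in WT5, and the 4 HET embryos lay close together from 125 to 131 CPM inside the WT range, with a log2 fold change of 0.04 (SE 0.08, adjusted p = 0.941).

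*Psmd5*, *Psmd9* and *Psmd10* are chaperones that help assemble the base and are not part of the finished complex. All 3 had estimates below 0 over all embryos. *Psmd9* was 37.8 CPM in WT5, 33.1 in WT15, 42.1 in WT16, 34.6 in WT41 and 40.03 in WT43. HET embryos gave 35.3 CPM in HET5, 31.9 in HET6, 34.6 in HET7 and 34.3 in HET24. HET6 was below every WT embryo, and the other HET embryos lay above WT15 and below WT5. The log2 fold change of *Psmd9* was −0.14 (SE 0.08, adjusted p = 0.911), and 25.5% of its exonic bases are overlapped by another gene, so reads may be split or shared there. *Psmd10*, also known as gankyrin, was at 11.5 ± 1.3 CPM (SD, n = 5) for WT against 11.5 ± 1.5 CPM (SD, n = 4) for HET, with a log2 fold change of −0.0037.

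The activators cap the core in place of the regulatory particle. Over all embryos 1 of their 4 genes had a log2 fold change below 0, and without WT16 all 4 were above 0. *Psme1* and *Psme2* encode the partners of the interferon-inducible cap and lie 5912 bases apart on chromosome 14. *Psme1* was 85.4 ± 9.0 CPM (SD, n = 5) for WT against 82.3 ± 3.2 CPM (SD, n = 4) for HET, with a log2 fold change of −0.05 (SE 0.08, adjusted p = 0.939) and 0.01 without WT16. *Psme2* was 51.7 ± 5.37 CPM (SD, n = 5) for WT against 51.9 ± 3.89 CPM (SD, n = 4) for HET, with log2 fold changes of 0.0043 and 0.07. *Psme2* shares 28.3% of its 50-base words with other transcripts, led by its close copy *Psme2b*. Both were highest in WT16.

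Neither of the nuclear activators was highest in WT16. *Psme3* (chr11:101316213-101323537, plus strand) was 163 CPM in WT5, 128 in WT15, 131 in WT16, 130.1 in WT41 and 132 in WT43. HET libraries gave 152 CPM in HET5, 139 in HET6, 131 in HET7 and 145 in HET24. WT5 stood above all others, the 4 remaining WT embryos lay within a few CPM of each other, and HET5, HET24 and HET6 were above those 4, with HET7 among them. *Psme4* (chr11:30771726-30880361, plus strand), a large activator linked to histone turnover, was 208 CPM in WT5, 168 in WT15, 156 in WT16, 171 in WT41 and 165 in WT43. HET embryos gave 188 CPM in HET5, 193 in HET6, 168 in HET7 and 171 in HET24. WT5 was again the highest, and WT16, which led most subunit genes, was the lowest of the 9. Log2 fold changes were 0.05 (SE 0.08, adjusted p = 0.940) for *Psme3* and 0.06 (SE 0.09, adjusted p = 0.940) for *Psme4*. Without WT5 they were 0.12 and 0.13 and did not pass the threshold, and they lay between 0.01 and 0.09 when any other embryo was left out. With a choroid plexus score as a covariate they were −0.0014 and −0.006. Among the embryos with *Ttr* under 100 CPM alone, a choice made after the data were seen, they were −0.07 and −0.02.

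Most of the 41 genes were highest in WT16, and most were lowest in HET7. WT16 held the highest value of the 9 embryos for 33 of the 41 genes, or 80.5%, whereas it held the highest value for 18.6% of all genes tested. HET7 held the lowest value for 25 of the 41, or 61.0%, against 13.5% of all genes tested. Among WT embryos alone, WT16 was above every other for 35 of the 41 genes (24.5% of all genes tested), and among HET embryos HET7 was below every other for 30 of 41 (27.7%). The mean log2 CPM over the 41 genes was 6.34 in WT16 and 6.02 in HET7. The other WT embryos were at 6.15 in WT5, 6.05 in WT15, 6.11 in WT41 and 6.16 in WT43, and the other HET embryos at 6.19 in HET5, 6.19 in HET6 and 6.05 in HET24. HET5 and HET6 were thus above every WT embryo except WT16. Without the sparse *Psma8*, *Psmb8* and *Psmb9*, HET6 at 6.76 was below WT5 at 6.78 and WT43 at 6.77, while HET5 at 6.79 kept its place. Taken by group, WT had a mean of 6.16 ± 0.11 (SD, n = 5) against 6.11 ± 0.09 (SD, n = 4) for HET, which is −0.05 apart and −0.005 without WT16.

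**Figure D3:**
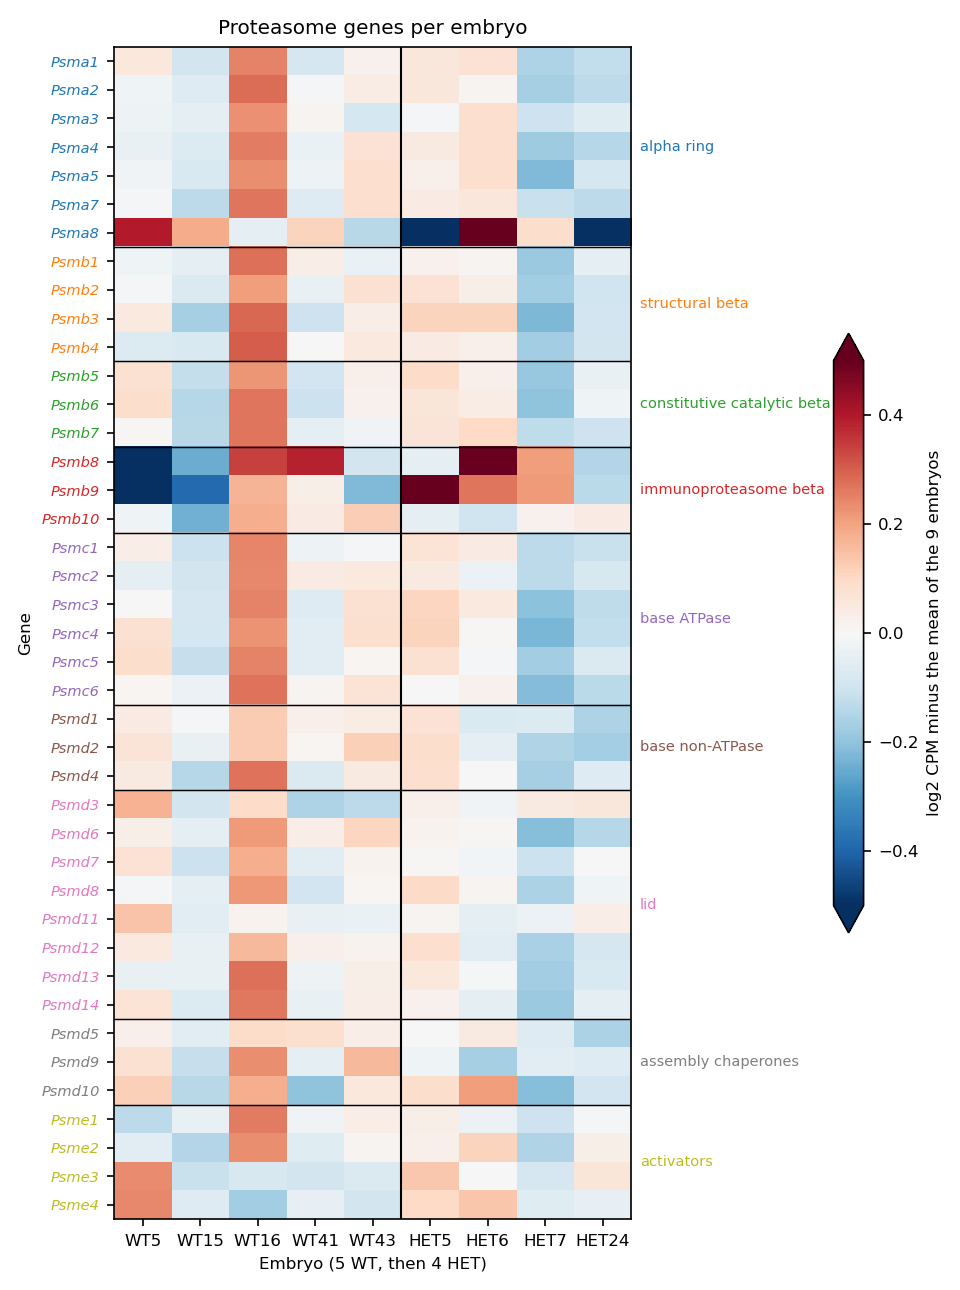
Log2 CPM of each of the 41 proteasome genes in each embryo minus the gene's mean over the 9 embryos, grouped by the part of the complex, with red above and blue below that mean and the colours saturated beyond 0.5 in either direction. The WT16 column is red for most genes of the core, base and lid and the HET7 column blue, while *Psma8*, *Psmb8*, *Psmb9*, *Psme3* and *Psme4* follow other orders.

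The parts of the complex followed WT16 unevenly. On the log2 scale WT16 exceeded the mean of the other 4 WT embryos by a median of 0.26 over the 41 genes, against −0.004 over all genes tested, and 38 of the 41 were above 0. All 4 structural beta, all 3 constitutive catalytic, all 6 ATPase and all 3 non-ATPase base genes were highest in WT16, as were 6 of 7 alpha ring, 6 of 8 lid, 2 of 3 assembly chaperone, 2 of 4 activator and 1 of 3 immunoproteasome genes. The medians were 0.41 for immunoproteasome, 0.31 for structural beta, 0.30 for constitutive catalytic, 0.27 for alpha ring, 0.26 for ATPase, 0.21 for assembly chaperone, 0.19 for lid, 0.11 for activator and 0.10 for non-ATPase base genes. Apart from the sparsely counted *Psmb8* (0.50) and *Psmb9* (0.41), the largest difference was that of *Psmb3* at 0.33, a ratio of 1.26 to the mean of the other WT embryos. The 3 genes below 0 were *Psme4* at −0.18, *Psma8* at −0.16 and *Psme3* at −0.07. HET7 was the lowest embryo for all 4 structural beta and all 6 ATPase genes and for 5 of 7 alpha ring genes, but for 0 of the 3 immunoproteasome genes. *Psmb3* in HET7 was 0.828 of the mean of the other HET embryos.

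**Figure D4:**
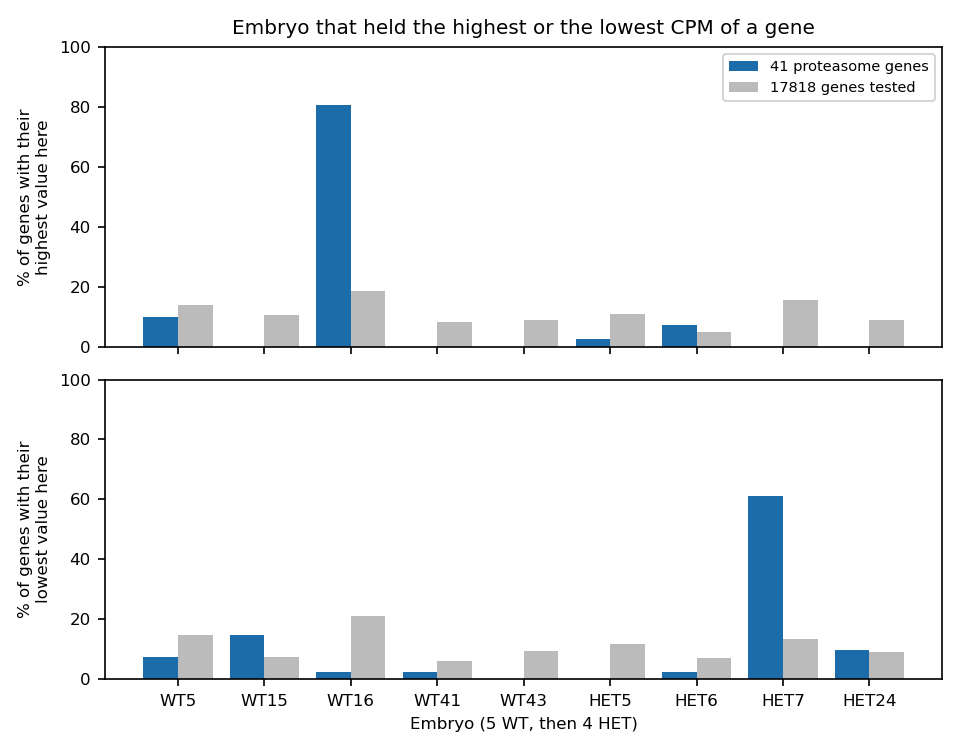
Share of genes whose highest (upper panel) or lowest (lower panel) CPM of the 9 embryos fell in each embryo, for the 41 proteasome genes (blue bars) and the 17818 genes tested (grey bars). WT16 holds the highest value of 80.5% of proteasome genes and HET7 the lowest of 61.0%, while among all genes tested the tallest bar is 20.9%.

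The spread of the proteasome genes in WT was wider with WT16 than without it. The median coefficient of variation of the 41 genes was 9.84% over the 5 WT embryos and 4.81% over the other 4, against 12.5% and 10.8% for all genes tested. In HET it was 7.29%, against 10.9% for all genes tested. The median WT level was 137 CPM over the 41 genes and 17.1 CPM over all genes tested. Neither the spreads nor the shares of genes highest in WT16 or lowest in HET7 were compared with genes of matched level. The part of expression level in these differences was not tested. Together the 41 genes took 0.569% of all counts in WT16, 0.441% in HET7 and 0.463% to 0.496% in the other 7 embryos.

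Other features of these libraries are given as values, and their association with the proteasome level over the 9 embryos was not tested. The sum of the 10 microglia markers was 98.8 CPM in WT16, 96.5 CPM in HET7 and 74.4 to 93.1 CPM in the other embryos. Summed over 6 radial glia and progenitor markers, the level was 2501 CPM in WT5, 1769 in WT15, 2167 in WT16, 1900.0 in WT41 and 2328 in WT43. In HET it was 2476 in HET5, 2137 in HET6, 1686 in HET7 and 1919 in HET24. Here HET7 was the lowest embryo, HET5 the highest HET embryo and WT16 the third highest of the WT embryos. Among the 9 embryos WT16 had the highest sums of the 8 erythroid markers (567 CPM, against 222 to 473) and of the 10 microglia markers (98.8 CPM, against 74.4 to 96.5) and the lowest sum of the 7 astrocyte markers (459 CPM, against 479 to 612). HET7 also had the highest sum of the 8 neuronal markers, 7178 CPM, against 6161 to 6837 CPM in the other 8 embryos. Single markers did not all follow these sums. WT16 was the lowest embryo for *Slc1a2* (82.7 CPM), while its other astrocyte markers lay inside the range of the other embryos. Of the neuronal markers, HET7 was the highest for *Dcx*, *Gad1*, *Map2* and *Stmn2* but not for *Gad2*, *Neurod2*, *Neurod6* or *Tubb3*. WT16 was the highest for *Neurod2*, *Neurod6* and *Tubb3* and the lowest for *Dcx* and *Map2*. None of these markers was at 0 in all embryos. The part of cell makeup in the proteasome values was not tested, and in bulk tissue fewer cells of a type and less RNA per cell cannot be told apart. WT16 also differed from the other WT embryos by gene length. Across 17804 genes, its difference from the other WT embryos had a Spearman rho of −0.36 with exonic length, and across the 41 proteasome genes −0.21, where genes of a sample are not independent replicates. With the longest transcript as the length, rho was −0.42 across the 17804 genes and −0.31 across the 41. The median exonic length was 2820 bases over the 41 genes and 3930 over all genes tested. Within the 41, WT16 exceeded the other WT embryos by a median of 0.26 in the shorter 21 genes and 0.25 in the longer 20.

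Other genes of the pathway, from lists of 45 tested genes that are not members, were split around 0 between HET and WT. Of the 45, 24 had estimates below 0 and 21 above over all embryos, and 19 and 26 without WT16, with 0 past the adjusted threshold in edgeR, DESeq2 or limma-voom in either fit. At an unadjusted p under 0.05, edgeR gave 1 gene over all embryos and 2 without WT16, DESeq2 2 and 3, and limma-voom 1 and 1. The shares of all genes tested at that level in edgeR were 3.09% lower and 2.32% higher over all embryos, and 2.58% and 1.87% without WT16.

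The same lists differed in how they followed WT16. WT16 held the highest value for 4 of 5 assembly genes of the core and both other subunit genes (*Adrm1* and *Sem1*), for 4 of 6 ubiquitin and ubiquitin-activating genes, for 4 of 9 proteasome-associated genes, for 3 of 11 interferon and antigen presentation genes, for 1 of 6 genes of proteasome gene transcription and for 0 of 6 shuttle factor genes. Over the lists together this was 18 of 45, where the share among all genes tested was 18.6%. Named after their values were seen, *Sem1*, a small lid subunit, was 162 CPM in WT16 and 115 to 147 CPM in the others, and *Nfe2l1*, the gene of NRF1, was 139 CPM in WT16 and 158 to 173 CPM in the others. A link between the RNA level of *Nfe2l1* and that of the subunit genes was not tested. Between HET and WT the log2 fold change of *Nfe2l1* was 0.08 (SE 0.06, adjusted p = 0.911).

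Promoter sequence was examined because most subunit genes had their highest value in WT16 and most their lowest in HET7. RefSeq windows of GRCm38.p6, 250 bases before to 50 bases after the annotated start, were found for 34 of the 41 genes, with 36 windows in all. *Psma8*, *Psmb1*, *Psmb2*, *Psmb7*, *Psmc3*, *Psmd3* and *Psmd7* were not matched. The core of the antioxidant response element, TGACNNNGC, which NRF1 and NRF2 bind with small MAF proteins, was found on either strand in 6 genes, *Psmb5*, *Psmb6*, *Psmc6*, *Psmd9*, *Psmd12* and *Psme4*. This is 17.6% of the 34 genes, against 16.5% of the 12435 genes tested that have a window and 14.0% of all 27025 genes in the table. For 3 of them, *Psmb5* and *Psmb6*, which were highest in WT16, and *Psme4*, which was lowest there, the windows are shown 5′ to 3′ with the match in capitals. The windows lie at chr14:54617946-54618245 on the minus strand, chr11:70525107-70525406 on the plus strand and chr11:30771525-30771824 on the plus strand.
Psmb5: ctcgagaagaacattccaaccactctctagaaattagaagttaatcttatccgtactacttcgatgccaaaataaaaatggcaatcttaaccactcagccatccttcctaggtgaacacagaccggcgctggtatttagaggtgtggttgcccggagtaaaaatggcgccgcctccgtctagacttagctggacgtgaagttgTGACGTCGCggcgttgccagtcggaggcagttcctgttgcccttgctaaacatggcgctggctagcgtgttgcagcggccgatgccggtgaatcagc
Psmb6: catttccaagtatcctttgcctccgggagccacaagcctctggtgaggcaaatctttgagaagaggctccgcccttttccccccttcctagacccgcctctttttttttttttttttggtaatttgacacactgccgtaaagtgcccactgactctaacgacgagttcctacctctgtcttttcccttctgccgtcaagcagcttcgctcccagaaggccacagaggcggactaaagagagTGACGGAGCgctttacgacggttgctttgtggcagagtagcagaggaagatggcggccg
Psme4: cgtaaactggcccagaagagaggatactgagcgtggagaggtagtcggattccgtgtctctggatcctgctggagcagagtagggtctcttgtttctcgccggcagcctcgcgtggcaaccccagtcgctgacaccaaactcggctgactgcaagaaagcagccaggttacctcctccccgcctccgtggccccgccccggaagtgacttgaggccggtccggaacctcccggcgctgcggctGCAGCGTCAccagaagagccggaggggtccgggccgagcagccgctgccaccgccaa
In *Psmb6* and *Psme4* the match lies directly before or across the annotated start, and in *Psmb5* it lies a little upstream. In *Psme4* it is on the other strand and so reads as the reverse complement. Letter matches are a description of these windows and not of binding.

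The letters ACGTG, a core bound by bHLH-PAS dimers on either strand, were found in 23.5% of the 34 genes (*Psma1*, *Psma4*, *Psma7*, *Psmb5*, *Psmb10*, *Psmd9*, *Psmd13* and *Psme3*) and in 28.1% of the genes tested. The E-box CANNTG was found in 58.8% and 68.2%, and its form CACGTG, which overlaps both of the former motifs, in 11.8% and 11.1%. The CCAAT box was found in 35.3% and 42.6% and the TATA box TATAAA in 11.8% and 9.26%.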

How the data were processed

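Poly(A) RNA of whole forebrain from 5 WT and 4 HET embryos was sequenced on an Illumina HiSeq instrument after TruSeq preparation, and 1 read of each pair was used. The authors aligned reads to GRCm38.p6 with STAR 2.7.9a and deposited counts per gene from featureCounts with GENCODE annotation, without normalization. How featureCounts treated strand and multi-mapping reads is not given in the sources used here. Shared 50-base words and overlapping exons were therefore computed, and coordinates and lengths taken, from GENCODE M21 on the same build. This release is earlier than the one the paper names for the counts, so overlaps and lengths may differ between them. M21 lists 55141 of the 55401 identifiers. No columns were identical, and groups came from the labels.

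Counts were filtered with edgeR's filterByExpr (minimum count of 10), scaled by TMM and tested by edgeR's quasi-likelihood test without covariates, with Benjamini-Hochberg adjustment over all genes and a threshold of 0.05, over all embryos (17818 genes) and again without WT16 (17678 genes). The script was tested on simulated data. Standard errors were derived as the absolute log2 fold change divided by the square root of the F statistic of that test. The 95% intervals were derived from them with the t distribution. Log2 CPM used a prior count of 2. R 4.3.3, edgeR 4.0.16, limma 3.58.1, DESeq2 1.42.0 and Python 3.11.15 were used. Total counts of 42640218 to 62830060 per embryo limit the counting error. Variation between embryos also enters the standard errors. Read duplicates cannot be told from separate molecules, so depth covers counting error only.

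Named genes were *Npas3*, any member called or with groups that did not overlap, all catalytic and activator genes, the highest and lowest fold change in each other part of the complex, the highest and lowest level per kilobase, the 3 largest and 3 smallest differences of WT16, and pathway genes called or not overlapping, which are not reported here. *Ttr*, other markers and further pathway genes were named after their values were seen. The members, lists and the comparison without WT16 were chosen with earlier results of these data known. No set test was run. Alternatives were DESeq2, limma-voom, other scalings and filters, a choroid plexus score as covariate, leaving out each embryo, and, added after the data were seen, leaving out WT16 and HET7 together, the embryos with *Ttr* under 100 CPM alone and leaving out *Psma8*, *Psmb8* and *Psmb9*.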

Additional observations from a re-analysis of the deposited data

Results flagged for a closer look

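Of 70 groups of log2 CPM values examined, 2 held an embryo whose gap to its nearest neighbour exceeded Dixon's critical share of the range, where chance alone flags about 1 in 20 groups, or 3.5 of 70. For *Psme3*, the gene of a nuclear proteasome activator, WT5 was at 7.35 while the other 4 WT embryos were at 7.004 to 7.04. For *Npas3*, HET7 was at 5.10 while the other 3 HET embryos were at 4.80 to 4.82. WT16 met the criterion in 0 of the groups.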

How the results depend on the processing

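Under the tools, scalings and filters tried, 0 of the 41 proteasome genes was called, nor was any when an embryo was left out, where 0 to 4 had an unadjusted p under 0.05 in edgeR. Leaving out each embryo in turn gave 27 to 36 genes below 0 and a median log2 fold change of −0.10 to −0.01, the latter without WT16, with 13 to 20 of all genes called lower and 0 to 5 higher. From the comparison without WT16, leaving out a further embryo gave 14 to 33 genes below 0, a median of −0.05 to 0.02 and 12 to 15 genes called lower and 0 to 3 higher. The direction of the median in that comparison therefore rested on single embryos. It was above 0 without HET7 (0.02), WT5 (0.008) or WT43 (0.005), and −0.05 without HET5, −0.04 without HET6 or WT15 and −0.02 without WT41.

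With all embryos, 20 genes were called lower and 5 higher. DESeq2 gave 62 and 24, the choroid plexus covariate gave 2 higher, leaving out WT16 and HET7 gave 0 higher and 14 proteasome genes below 0, and the embryos with *Ttr* under 100 CPM gave 12 lower and 3 higher. Without WT16, 18 were called lower and 2 higher. DESeq2 gave 59 and 27, upper-quartile factors and library totals each gave 1 higher, and no filter gave 6 higher. The choroid plexus covariate moved the median without WT16 to −0.04, with 33 genes below 0. Without *Psma8*, *Psmb8* and *Psmb9*, 34 of 38 genes were below 0. With the longest transcript as length, WT levels in CPM per kilobase were 0.0705 for *Psmb9*, 149.9 for *Psmb6*, 58.8 for *Psmb7*, 0.229 for *Psmb8* and 5.31 for *Psmb10*. The cause of these shifts was not tested. Of the named genes' alternatives, 1 changed a call, *Npas3* without WT16 in DESeq2 (adjusted p = 0.0350). Counts of 6 to 37 per embryo limit *Psma8*, *Psmb8* and *Psmb9*.

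No paired analysis was possible because the labels do not say which embryos shared a litter. The number 5 occurs in both groups, but the labels do not say that it marks a pair.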
